A study of Homo sapiens with 2 samples.

Results

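Some of the transcripts listed for the human lung cancer line 95D belong to loci that carry no gene name. They appear only under names that begin with XLOC and go on with a number. Every name of that form with a number in place of the missing-value mark was taken, and the values of its rows were summed. This gave 358 loci in 391 rows, out of 9253 names in 18663 rows with a value. The choice used the name and the presence of a value, and no level.

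The cells were wild type and were kept in complete medium for 24 h and then for 48 h without glucose or without glutamine, in medium with dialyzed serum. There were 2 libraries of ribosomal RNA-depleted total RNA, called here the no-glucose and the no-glutamine library. With 1 per condition, no difference was checked against replicates and there are no p-values. The series is described as a pull-down of RNA bound to ALKBH5, a demethylase that erases m6A from RNA, set against input RNA, but neither sample's label says which of these it is. Cells in complete medium were not analysed here, and whether either library is the input is not known. If the libraries differ in this, the difference cannot be told apart from the nutrient condition. In a bulk library, fewer cells with a transcript and less transcript per cell cannot be told apart.

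Names of this form are given by programs that merge assembled transcripts into loci and find no annotated gene to name them after. Such a locus can be an unannotated long non-coding RNA, an extension of a gene beyond its annotated end, a transcribed repeat or unspliced RNA. The files give no sequence, position or strand for any of them, so which of these a locus is was not tested here.

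No XLOC row in the files held the missing-value mark, so the condition on a value removed none, and all 391 rows listed were members. Under all other names 18272 of 91444 listed rows, or 19.98%, carried a value. Among names that are only an Ensembl identifier the share was 9.39%, among LINC symbols of intergenic long non-coding RNAs 3.44%, and among antisense symbols 9.09%. These shares describe which rows were listed and filled and say nothing of level.

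Values were in an unstated unit whose low levels climbed in equal steps, 1 step per read, and reads were recovered from these steps. The listed transcripts held 42827 recovered reads in the no-glucose library and 1442570 in the no-glutamine library. Only 474 of the 18663 rows were above 0 in the former, against 18564 in the latter, and the part of that gap in the results below was not tested. Of 10 lung epithelial and carcinoma markers, 5 had a value. Among them KRT8, a simple-epithelium keratin, stood at 199.8 in the no-glucose and 143 in the no-glutamine library, and NAPSA, a protease of alveolar cells, at 161 and 18.9. The keratins KRT7, KRT18 and KRT19 went the other way. They were listed at 0 in the no-glucose library and stood at 9.47, 75.1 and 42.6 in the no-glutamine library. The lung lineage factor NKX2-1 was among those without a value, as were the surfactant genes SFTPB and SFTPC and the epithelial genes EPCAM and CDH1. FN1, fibronectin, and VIM, vimentin, were the 2 of 3 mesenchymal markers with a value. FN1 stood at 344 in the no-glucose and 963 in the no-glutamine library, and VIM at 0 and 75.9. None of 8 markers of blood and endothelial cells had one. Summed, the epithelial markers stood at 360.3 and 289, and the mesenchymal ones at 344 and 1039. These are deposited values. With each library rescaled to the same total, FN1 alone of these markers turned. Its log2 ratio of no-glutamine over no-glucose was 1.48 as deposited and -2.91 rescaled.

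Only 13 of the 358 loci were above 0 in the no-glucose library, or 3.63% (95% Wilson interval 2.13 to 6.11%). Over all 9253 names the share was 4.25%, so the loci were near the background. In the no-glutamine library 354 loci were above 0. Of these, 9 were above 0 in both libraries and 345 in the no-glutamine library alone. The remaining 4 were seen in the no-glucose library alone, beside 0.454% of all names. Every filled row was above 0 in at least 1 library, so the 345 loci at 0 in the no-glucose library had to be above 0 in the other. The high share in the no-glutamine library is thus no separate result.

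**Figure D1:**
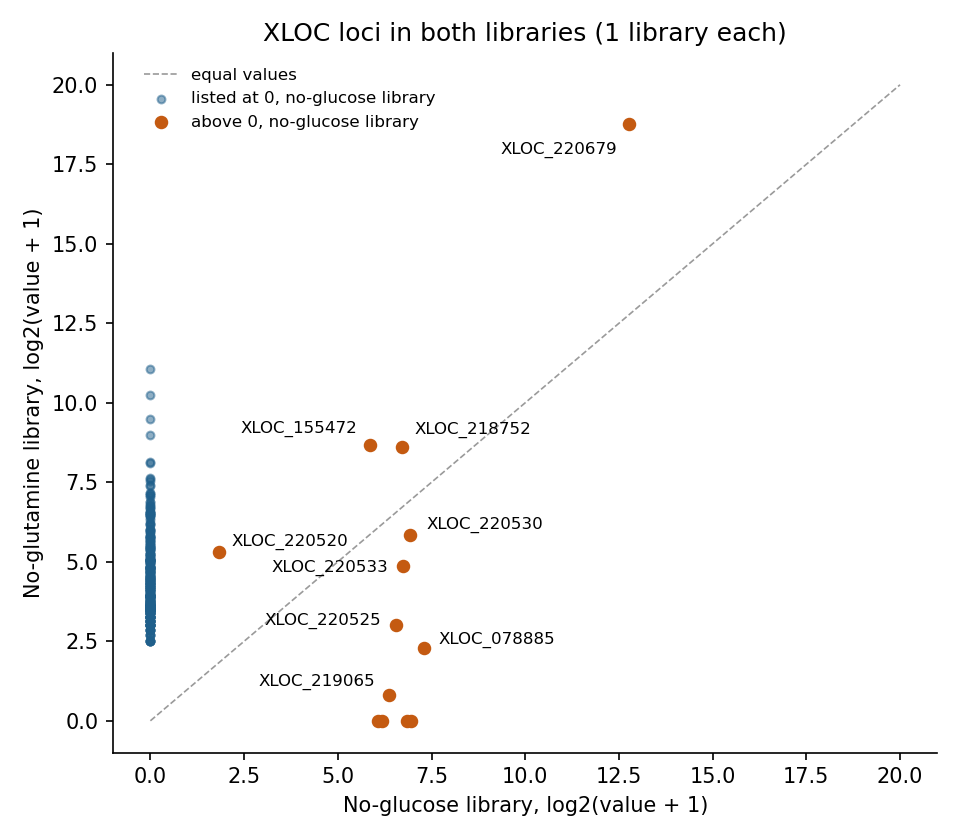
Each point is 1 of the 358 XLOC loci, with log2(value + 1) in the no-glucose library on the x axis and in the no-glutamine library on the y axis, and the dashed line marks equal values. The 345 loci at 0 on the x axis form the column at the left, the 13 others are in orange, and XLOC_220679 lies far from the rest at the upper right.

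XLOC_220679 dominated every sum over the loci. This locus, with 1 row, stood at 7036 in the no-glucose and 442573 in the no-glutamine library, and ranked first of all names in both. The log2 ratio of no-glutamine over no-glucose, on the log2(value + 1) scale used throughout, was 5.97 as deposited. With each library rescaled to the same total it was 1.58, so it was higher in the no-glutamine library on either scale. It held 86.6% (85.7 to 87.4%) of the reads of all XLOC loci in the no-glucose library and 96.5% (96.5 to 96.6%) in the no-glutamine library. In reads, it was 13.9 (12.6 to 15.4) times NEAT1, a nuclear long non-coding RNA, in the no-glucose library and 17.4 (17.2 to 17.6) times in the other. That ratio is taken within a library and no scaling alters it. The intervals do not overlap, but like all intervals here they cover counting error alone. Reads were not tied to single molecules by identifiers, and nothing here measures the spread between cultures.

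The 3 names nearest to this locus in deposited log2 ratio, of 350 others above 0 in both libraries, were RPL18 at 5.99, USP34 at 6.12 and MALAT1 at 5.71. RPL18, a ribosomal protein, and USP34, a deubiquitinase, rested on 1 read each in the no-glucose library, so their ratios are poorly measured. MALAT1, an abundant nuclear long non-coding RNA, had 1035 reads there and 86691 in the no-glutamine library. Likeness over 2 libraries is only a like ratio.

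With XLOC_220679, the loci took 15.01% (14.7 to 15.4%) of the reads in the no-glucose library and 40.2% (40.1 to 40.3%) in the no-glutamine library. Without it, in the members and in the total, the other 357 loci took 2.32% (2.17 to 2.48%) and 2.28% (2.25 to 2.31%). The difference between the libraries in the first pair therefore came from 1 locus, and the second pair overlaps. Names that are only an Ensembl identifier, taken over the same totals, behaved alike at 6.78% (6.53 to 7.04%) and 6.79% (6.74 to 6.85%). LINC symbols stood at 1.15% (1.05 to 1.26%) and 1.51% (1.48 to 1.53%), and antisense symbols at 3.47% (3.29 to 3.66%) and 2.85% (2.82 to 2.89%), each with intervals apart.

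These shares came from very different numbers of loci. In the no-glucose library the 864 reads outside XLOC_220679 lay in 12 loci, and the 5 highest held 56.5% (53.2 to 59.8%) of them. In the no-glutamine library 20150 reads lay in 353 loci, and the 5 highest held 31.4% (30.7 to 32.03%). With so few loci above 0 in the no-glucose library, a larger part in the highest 5 follows in part from their number.

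The other 12 loci above 0 in the no-glucose library are given with their values in both. They are members of this group through that library, so the range of their values there and in the other library is a description and is no contrast between the libraries. XLOC_078885 was the highest of them, at 156 in the no-glucose and 3.94 in the no-glutamine library. XLOC_220530 stood at 120.1 and 56.1, and XLOC_220533 at 105 and 28.5. These 3 were higher in the no-glucose library as deposited and more so after rescaling.

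XLOC_220525, at 92.3 and 7.10, and XLOC_219065, at 82.2 and 0.772, were higher there on both scales as well. The last of these values is a single read. The log2 ratios of these 5 loci ran from -5.55 for XLOC_219065 and -4.99 for XLOC_078885 to -1.08 for XLOC_220530. At least 2-fold higher in the no-glucose library were 9 loci, these 5 and the 4 listed at 0 in the other library, beside 1.42% of all names.

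Those 4 were XLOC_008148 at 123, XLOC_015492 at 114, XLOC_218155 at 72.1 and XLOC_036509 at 65.8 in the no-glucose library. No fold is given against a listed 0. XLOC_036509 had 4 rows, and each stood at the same 16.5, or 13 reads. Equal values in all rows were seen for 2 of 48 other names with several rows above 0 in that library. Whether the same reads were entered in each row, which would make the sum 4 times too high, was not tested.

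For 3 loci the direction turned with the scale. XLOC_218752 stood at 104 and 392, and its log2 ratio was 1.91 on the deposited and -2.48 on the rescaled values. XLOC_155472 stood at 56.9 and 406, a log2 ratio of 2.81 and -1.56. Its no-glucose value came from 1 of its 3 rows, and that row stood at 72.8 in the no-glutamine library, where the other rows were at 94.1 and 239. XLOC_220520 was the exception in level, at 2.55 in the no-glucose library, or 2 reads, and 38.7 in the other, a log2 ratio of 3.48 and -0.46.

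**Figure D2:**
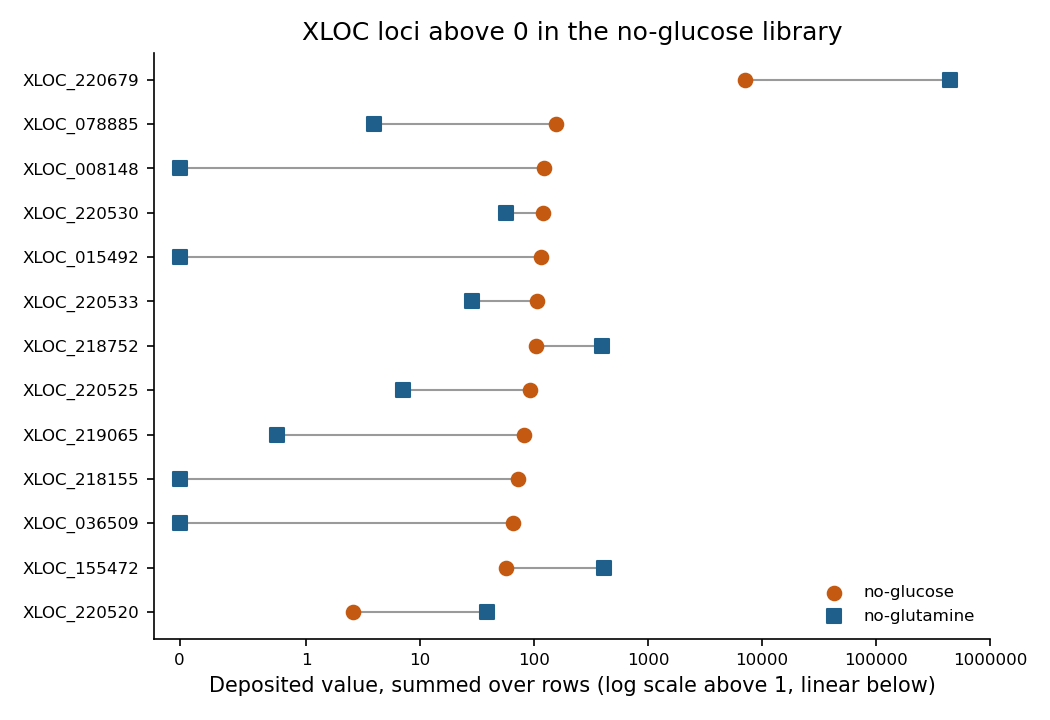
Deposited values of the 13 XLOC loci above 0 in the no-glucose library, with circles for that library and squares for the no-glutamine library (axis logarithmic above 1 and linear below, 1 library each). Outside XLOC_220679 and XLOC_220520 the circles lie between 56.9 and 156 and the squares between 0 and 406, for loci chosen by their circles.

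Ratios between loci within a library, which no scaling alters, are given for 4 pairs out of a larger number taken. XLOC_218752 had 0.863 (0.643 to 1.16) reads for each read of XLOC_220530 in the no-glucose library and 6.97 (5.44 to 8.93) in the no-glutamine library. XLOC_155472 had 0.549 (0.382 to 0.788) for each of XLOC_218752 and then 1.04 (0.916 to 1.17). That rise depends on rows at 0 in the no-glucose library. The row of XLOC_155472 seen in both libraries had 45 reads and then 92, against 82 and then 495 for XLOC_218752, so on that row the ratio fell. XLOC_220679 had 67.9 (54.6 to 84.4) for each read of XLOC_218752 and then 1130 (1035 to 1234). For these 3 pairs the intervals of the libraries were apart. For XLOC_220530 against XLOC_220533, 1.14 (0.854 to 1.53) and 1.97 (1.32 to 2.94), they overlapped. These pairs were chosen after the values were seen, from the loci above 0 in the no-glucose library. The intervals cover counting error and not that choice. Apart or overlapping, the ratios thus describe these loci and are no contrast between the libraries.

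Few rows of the no-glucose library stood low. Of the 16 XLOC rows above 0 there, 1 had fewer than 10 reads, and the median was 69 reads. Under all other names 91 of 458 rows had fewer than 10, or 19.9%, and the median was 70.

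The level in the no-glutamine library, where nearly all loci were measured, had a median of 16.6, with quartiles of 10.3 and 33.2. The median of all other names was 21.3, with quartiles of 8.68 and 60.9, so on these sums the quartiles of the loci lay inside those of the other names. Names that are only an Ensembl identifier had a median of 10.3, LINC symbols 14.99 and antisense symbols 17.4. Of the loci, 26 were above 100 and 3 were above 1000. Loci with several rows were few, 19 of 358 or 5.31%, against 8.21% of Ensembl identifiers, 33.3% of LINC symbols and 33.1% of antisense symbols. As a sum over more rows is larger, rows were also compared singly.

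By row, the loci lacked the low end. The higher of a row's reads in the 2 libraries was never below 6 for an XLOC row, and 0 of 391 were under 5, which allows a share of up to 0.767%. Under all other names 2770 of 18272 rows, or 15.2% (14.6 to 15.7%), were under 5. In the no-glutamine library alone, 34 of 384 XLOC rows above 0 had fewer than 10 reads, or 8.85%, against 31.9% under all other names. At the upper end 11.5% of XLOC rows and 8.74% of the others had over 100 reads.

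**Figure D3:**
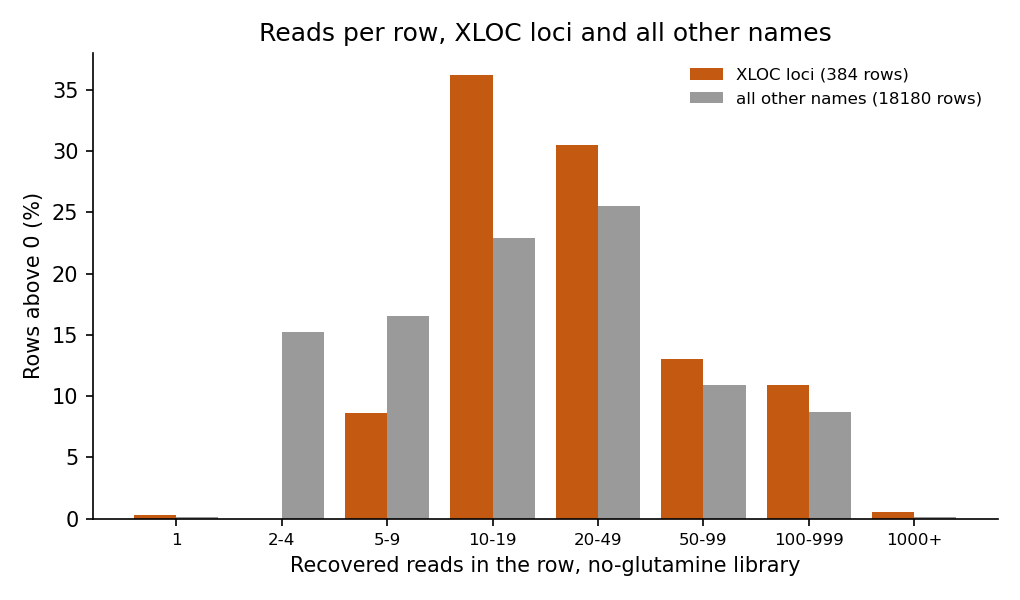
Share of rows above 0 in the no-glutamine library (y axis, percent) by recovered reads in the row (x axis), for XLOC loci in orange and all other names in grey. The bars for 2 to 4 reads are empty for XLOC rows and stand at 15.2% for the others, and XLOC rows are more often at 10 to 19 reads (36.2% against 22.9%).

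After XLOC_220679 the highest locus in the no-glutamine library was XLOC_218750, at 2149 and ranked 13 among all names, and it was listed at 0 in the no-glucose library. It also had the most rows, 7, which stood between 24.5 and 727. XLOC_220274 followed at 1225 with 1 row, then XLOC_116665 at 713 with 6 rows between 48.2 and 202, and XLOC_220523 at 510.2. These were listed at 0 in the no-glucose library. Transcript length was not taken out of the values, so this is an order of reads and not of molecules.

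The next in order were XLOC_155472 and XLOC_218752, the only ones between rank 2 and rank 15 of the loci that were above 0 in the no-glucose library. Then came XLOC_219704 at 282 and XLOC_218777 at 275, XLOC_219111 at 196 and XLOC_122438 at 195. XLOC_116667 stood at 184, XLOC_116561 at 171, XLOC_118605 at 166 and XLOC_219950 at 142, all listed at 0 in the no-glucose library. XLOC_116605, with 3 rows like XLOC_116667, stood at 102. So 3 of these 15 loci were seen in both libraries. XLOC_078885, second of the loci in the no-glucose library, was 353rd of 354 in the no-glutamine library.

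The loci were also set beside names of like level, and among names above 0 in the no-glutamine library the intervals of the loci and the other names overlapped in each class. Among names above 100 in the no-glutamine library, 3 of 26 loci, or 11.5% (4.003 to 29.0%), and 192 of 1439 other names, or 13.3% (11.7 to 15.2%), were above 0 in the no-glucose library. Between 20 and 50 it was 2 of 95 loci, or 2.11% (0.579 to 7.35%), and 2.58% (1.97 to 3.38%) of the others. Between 10 and 20 it was 0 of 131 loci, which allows a share of up to 2.29%, and 1.43% (0.973 to 2.11%) of the others. Above 0 and up to 10 it was 3 of 68 loci, or 4.41% (1.51 to 12.2%), and 1.14% (0.798 to 1.64%) of the others, and these intervals overlap by little. The 3 were XLOC_078885, XLOC_220525 and XLOC_219065. These classes leave out names at 0 in the no-glutamine library, 4 loci and 38 others, each of which carried a value only through the no-glucose library. With them, 7 of 72 loci at 10 or less, or 9.72% (4.79 to 18.7%), and 67 of 2573 others, or 2.60% (2.06 to 3.29%), were above 0 in the no-glucose library. These intervals do not overlap, but every name added was above 0 there by construction. The gap is therefore no result about the loci.

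**Figure D4:**
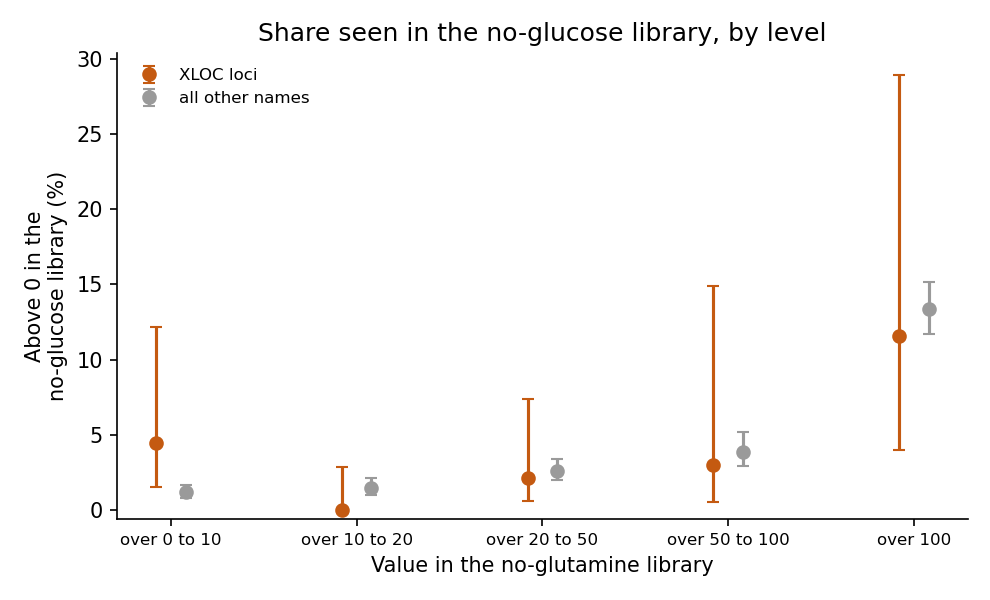
Share of names above 0 in the no-glucose library (y axis, percent, with 95% Wilson intervals) by the value in the no-glutamine library (x axis), for XLOC loci in orange and all other names in grey. Names at 0 in the no-glutamine library are left out. Both climb to above 10% in the highest class, at 11.5% and 13.3%, and the intervals of the loci are wide.

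On the count of names apart by at least 2-fold, 349 loci were higher in the no-glutamine library, as were 97.4% of all names, and 345 of these 349 were listed at 0 in the no-glucose library. The other 4 were XLOC_220679, XLOC_155472, XLOC_218752 and XLOC_220520. The median log2 ratio of the loci was 4.07 beside 4.32 for all names. It mainly carries the no-glutamine level and the pseudocount. With log2 ratios centred on the median over all names, 75 loci were at least 2-fold above that median and 65 at least 2-fold below it. Only 13 loci were above 0 in the no-glucose library, so most of the 65 were listed at 0 there. Of all 9253 names, 8860 were at 0 there too, so the centre mainly carries their no-glutamine level. The centred split is therefore no direction between the libraries. With each library rescaled, 346 loci were higher in the no-glutamine and 11 in the no-glucose library. Rescaling moved the median of all names to 4.14.

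Of 18 abundant named non-coding RNAs listed for comparison, 12 had a value and 8 of these were above 0 in the no-glucose library. MALAT1, NEAT1 and PVT1, with log2 ratios of 5.71, 5.65 and 7.82, were like XLOC_220679 higher in the no-glutamine library after rescaling too, at 1.31, 1.26 and 3.66. For PVT1 the no-glucose value was 5.08. The other 5 of the 8 turned with the scale. They were NORAD, with log2 ratios of 0.81 as deposited and -3.59 rescaled, OIP5-AS1 at 0.87 and -3.52, CYTOR at 1.37 and -3.02, SNHG14 at 1.45 and -2.94, and GAS5 at 2.66 and -1.72. TERC, the RNA of telomerase, stood at 0 and 2.35. RN7SK, RN7SL1, RN7SL2, RMRP and RPPH1, small structural RNAs that are abundant in many cells, and SCARNA2 were not among the names analysed here.

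The numbers in the names were not spread evenly. They ran from 1348 to 228127, and what they encode is not given in the sources used here. In blocks of 1000 numbers, a grouping chosen after the numbers were seen, 68 loci fell in 1 block, with numbers from 116404 up to that of XLOC_116667. Another 129 fell in 3 neighbouring blocks, with numbers from 218002 to 220842. The other 161 fell in 108 blocks with at most 6 in any. So 18.99% and 36.0% of the loci lay in 4 of the 112 blocks that held any.

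In the first group, none of the 68 was above 0 in the no-glucose library (0 to 5.35%), although their median of 22.5 in the no-glutamine library was the highest of the 3 groups. In the second, 8 of 129 were, or 6.20% (3.18 to 11.8%), with a median of 18.97. Without XLOC_220679 it was 7 of 128, or 5.47%. Among the remaining 161 loci 5 were, or 3.11% (1.33 to 7.06%), with a median of 14.2. The intervals of the groups overlap, so the share seen in the no-glucose library was not separated by number at this size. Values above 100 in the no-glutamine library were held by 8 loci of the first group and 14 of the second, 11.8% and 10.9%, and by 4, or 2.48%, of the remainder.

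**Figure D5:**
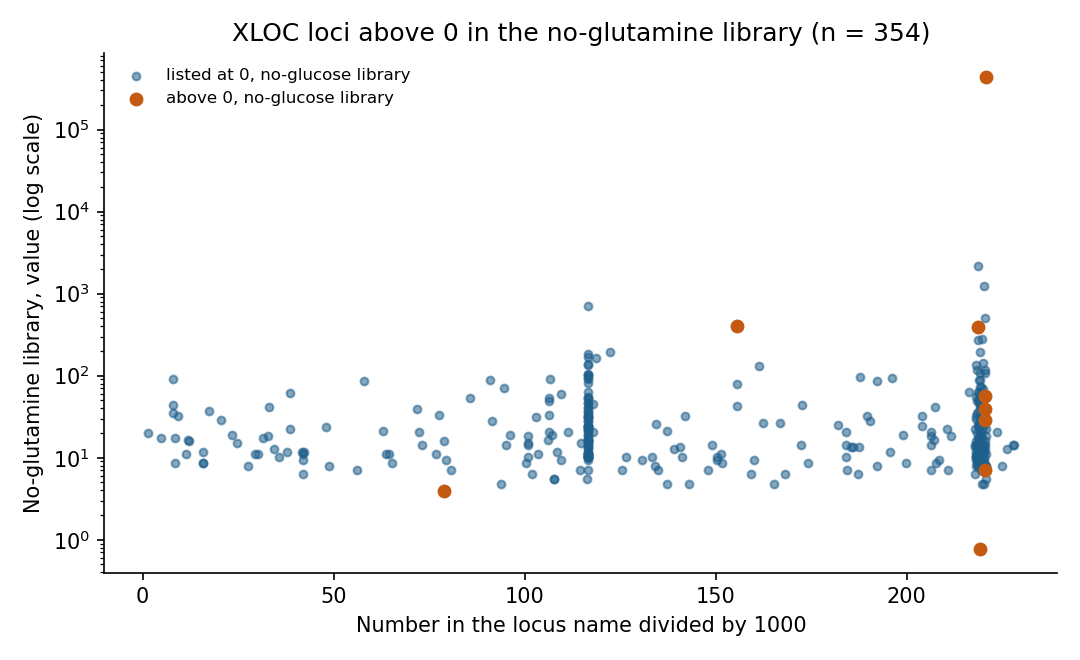
Value in the no-glutamine library (y axis, logarithmic) of the 354 XLOC loci above 0 there, by the number in the locus name divided by 1000 (x axis), with loci above 0 in the no-glucose library in orange. Loci pile up in 2 narrow bands of numbers, and XLOC_220679 stands at the top of the right-hand band.

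Loci with neighbouring numbers often stood near each other in the files. Of 61 pairs with consecutive numbers, 24 stood in adjacent rows and 41 within 5 rows of each other. In 57 of these pairs neither locus was above 0 in the no-glucose library, in 4 pairs 1 locus was, and in 0 pairs both were, with 13 such loci in all. Of the 7 loci from XLOC_220520 to XLOC_220533, 4 were above 0 in the no-glucose library, named above. The other 3, XLOC_220523 at 510.2, XLOC_220522 at 116 and XLOC_220531 at 12.6 in the no-glutamine library, were listed at 0 there. The highest pair of this run in the no-glutamine library, XLOC_220523 and XLOC_220522, were thus listed at 0 in the other.

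The 7 loci from XLOC_116660 to XLOC_116667 were by contrast all listed at 0 in the no-glucose library and stood between 54.6 and 713, with a sum of 1420.5, in the no-glutamine library. XLOC_155472 was flanked by XLOC_155471 at 78.3 and XLOC_155473 at 42.7, both listed at 0 in the no-glucose library. XLOC_218750, at 0 and 2149, is numbered close to XLOC_218752, at 104 and 392. These runs were chosen after their values were seen.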

How the data were processed

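Per the submitters' processing notes, HISAT2 2.0.5, StringTie and genome build hg38 were used, without the role of each. Not given in the sources used here are the counter, the annotation, any filter and how the deposited values were normalized, and they have no stated unit. Values under 1e-09 were set to 0 and rows without a number left out. Reads were recovered by subtracting an offset (0.022, -0.018) and dividing by a step (1.264 in the no-glucose, 0.791 in the no-glutamine library). Up to 1000 reads, 100% of the 472 and 18536 values came out whole (tolerance 0.1 read). Higher reads, those of XLOC_220679 among them, extend the same line. A whole-series table was not used, with 2 columns of sample values.

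Ratios are log2(value + 1), no-glutamine minus no-glucose. No test was run, since each condition has 1 library. Rows of a name were summed, and names were classed by their spelling. Intervals are 95% Wilson intervals of reads or names, and of ratios of reads from the same method. The upper limit beside a 0 of rows or names is 3 counts of the total. Members, lists and settings were chosen with earlier results of these data known.

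Named loci were those above 0 in the no-glucose library, the 15 highest in the no-glutamine library, the 5 with the most rows, those seen in the no-glucose library alone, and any needed to name a small count. Any further choice is marked in the text as made after the values were known. The calculation was tested on simulated data built on 9253 names, where 200 of 200 changed names were recovered. Both simulated libraries had the depth of the no-glutamine library, and no name with few reads was among those changed. The simulation therefore checks the arithmetic and cannot tell how well names are called at the depth of the no-glucose library. Python 3.11.15, pandas 2.3.3, numpy 2.4.6 and scipy 1.17.1 were used. Alternatives were rescaling, centring, another pseudocount, minimum values, other fold thresholds, the largest row in place of the sum, and leaving out XLOC_220679.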

Additional observations from a re-analysis of the deposited data

How the results depend on the processing

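Of 39 recomputed values, 24 stayed within the tolerance set for them (1.5 times for a count, the interval for a share, 2 decimals for a log2 value) and 15 moved; none changed sign. The number of loci above 0 in the no-glucose library moved under no setting tried. With ratios centred on the median over all names, 75 loci were at least 2-fold above that median and 65 at least 2-fold below it. Most of those 65 were listed at 0 in the no-glucose library, so this is no direction between the libraries. With loci at 1 or more in both libraries, 4 were at least 2-fold higher in each library, as few loci remain there. The median log2 ratio of the loci was 3.89 with each library rescaled, 7.31 with a pseudocount of 0.1, 4.14 with a minimum of 5 in either library and 0.41 with a minimum of 1 in both. The share of summed value in the loci was 2.32% and 2.28% with XLOC_220679 left out of members and total, 15.7% and 48.3% with the largest row of each name, and 40.3% in the no-glutamine library with a minimum of 5. The log2 ratio of XLOC_220679 was 1.58 after rescaling and 1.66 after centring, on a centre set mainly by names at 0 in the no-glucose library. No paired analysis was possible because each condition has 1 library. Of the 345 loci listed at 0 in the no-glucose library, 310 would have fewer than 3 reads there at their share of the no-glutamine reads. These totals include XLOC_220679, with 13.0% of the no-glucose and 38.8% of the no-glutamine reads. With it left out of both totals each expected number would be higher, and the count was not recomputed. The floor of 3 was chosen here, and names with 1 or 2 reads were listed in that library. A 0 at any of these 310 loci taken singly says little, and why they stood at 0 as a set was not tested. The other 35 would have 3 or more, led by XLOC_218750 with 80.7, XLOC_220274 with 46.0 and XLOC_116665 with 26.7, and why these stood at 0 was not tested.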
